A study of Mus musculus with 19 samples.

Results

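The genes described here are the 39 listed aminoacyl-tRNA synthetases of mouse liver and their scaffold proteins, made up of 20 cytosolic synthetase genes, 16 mitochondrial synthetase genes and 3 scaffold genes. Members were picked by annotated gene symbol, with earlier results of these data known. Of the 39, 36 had a probe on the array and 31 were detected well enough to be tested, among 9346 genes tested and 16593 genes with a probe. The tested members were 17 cytosolic synthetases, 11 mitochondrial synthetases and all 3 scaffold proteins. Dars, Cars2 and Tars2 were not analysed here for lack of a named probe, and the probes of Hars, Yars, Aars2, Hars2 and Yars2 were above background on at most 3, 1, 7, 0 and 0 of the 19 arrays. RNA was measured on Illumina MouseRef-8 bead arrays in livers of male Swiss-Webster mice aged 7 weeks. Every mouse had been fasted, and all were injected intraperitoneally with DMSO or with compounds dissolved in it. The DMSO group (n = 6) received the vehicle and the IDFP group (n = 8) received 10 mg/kg IDFP, an organophosphorus inhibitor of the enzymes that degrade endocannabinoids. The AM251/IDFP group (n = 5) received 10 mg/kg AM251, an antagonist of the cannabinoid receptor CB1, ahead of IDFP. Livers were taken 4 h after treatment, so the data cover a single dose and a single time, and no group received AM251 alone. Group sizes are those of the sample labels, and a table footnote of the study gives other sizes for the DMSO and AM251/IDFP groups.

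Aminoacyl-tRNA synthetases join each amino acid to its transfer RNAs, the step that sets the genetic code and supplies charged tRNA to the ribosome. In mammals the cytosol and the mitochondrion use largely separate enzymes, all encoded in the nucleus, with Gars and Kars each supplying both compartments from the same gene. A group of the cytosolic enzymes is held in a multi-synthetase complex by the scaffold proteins Aimp1, Aimp2 and Eef1e1. In the amino acid response, uncharged tRNA activates the kinase Gcn2, phosphorylation of eIF2alpha follows, and the transcription factor ATF4 is translated; several cytosolic synthetase genes are known ATF4 targets. The liver is a major site of protein secretion and amino acid breakdown.

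Signals below are background-corrected, quantile normalized intensities on a linear scale, on which a probe at the detection threshold read 59.1 to 59.3. Log2 changes are differences between group means of log2 signal, given with their standard error (SE), and a gene was called changed at an adjusted p (limma with Benjamini-Hochberg adjustment over all 9346 genes) under 0.05. Signals of different genes come from different probes and are not compared. Each array held a separate mouse. All 5 hepatocyte markers (Alb, Apoa1, Ttr, Tat and Cps1) were detected, with summed signals of 66343 to 73414 in DMSO, 64336 to 75013 in IDFP and 66989 to 75133 in AM251/IDFP mice. In whole liver, fewer cells of a type and less RNA per cell cannot be told apart.

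To determine how IDFP altered the synthetases, IDFP and DMSO mice were compared. Transcripts of 10 of the 31 members fell and none rose, beside 9.53% of all genes tested that fell (891 of 9346) and 6.75% that rose (631 of 9346). Of the 17 cytosolic synthetases 8 fell, namely Mars, Iars, Gars, Lars, Aars, Farsb, Sars and Rars, by 0.34 to 0.77 on the log2 scale. Of the 11 mitochondrial synthetases only Rars2 fell, and of the 3 scaffold proteins only Eef1e1. By unadjusted p under 0.05, 17 members differed, beside 2882 of all 9346 genes. The median log2 change was -0.34 for the cytosolic synthetases, -0.077 for the mitochondrial synthetases, -0.26 for the scaffold proteins and -0.0010 for all genes tested. The cytosolic median was thus lower than the mitochondrial median by 0.26. Taken within each of the 8 IDFP mice, from medians relative to the DMSO mean, the difference had an SD of 0.16 (the plot of medians by mouse shows the medians). That SD leaves out the spread of the DMSO mice. The cytosolic median of -0.34 is the value of Cars, a dim gene that met the detection filter only through the DMSO group. With detection required on every array of a group, which leaves out Cars, the difference was -0.245. No test was made of this difference, because members and compartments were chosen with earlier results of these data known. Of the mitochondrial members, Mars2, Nars2, Pars2, Sars2 and Wars2 were also dim. Their mean DMSO signals were 126, 123, 95.3, 102 and 147, where the detection threshold read 59.1 to 59.3. The part of probe brightness in the difference between compartments was not tested.

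Of the 7 tested synthetases of the multi-synthetase complex, 4 fell, namely Mars, Iars, Lars and Rars. Mars, the methionyl enzyme, which also charges the initiator tRNA, had lowest, median and highest signals of 1692, 1949.8 and 2450.3 in DMSO mice and 1065, 1112 and 1712 in IDFP mice. All but 1 of the 8 IDFP mice lay below every DMSO mouse, the exception being IDFP mouse 6, and the log2 change was -0.77 (SE 0.11, adjusted p = 0.000102), a level 0.587 times that of DMSO. Iars, the isoleucyl enzyme, ranged from 1095 through a median of 1392 to 1643 in DMSO mice and from 689 through 833 to 1177 in IDFP mice. Again 7 of the 8 IDFP mice lay below every DMSO mouse and mouse 6 did not, with a log2 change of -0.70 (SE 0.11, adjusted p = 0.000295). Lars, the leucyl enzyme and in mammals also a leucine sensor for mTORC1, gave 474, 588 and 675 in DMSO mice and 290.4, 395 and 447 in IDFP mice. The groups did not overlap, and the log2 change was -0.61 (SE 0.12, adjusted p = 0.00163). Among all genes tested, every IDFP mouse lay below every DMSO mouse for 2.72% (254 of 9346), and among the 31 members for 5, namely Farsb, Lars, Wars, Rars2 and Eef1e1. Rars, the arginyl enzyme, averaged 701 ± 69.8 (SD, n = 6) in DMSO and 553 ± 58.5 (SD, n = 8) in IDFP mice, a log2 change of -0.34 (SE 0.11, adjusted p = 0.0378). Its call did not survive leaving out any 1 of DMSO mice 2, 4 or 5 or IDFP mice 2, 4, 7 or 8, the adjusted p then rising to 0.0862 at most. The second detected Rars probe, dimmer than the one used, had a log2 change of -0.47. The other 3 enzymes of the complex were not called, with log2 changes of 0.13 (95% interval -0.063 to 0.33) for the lysyl enzyme Kars, 0.081 (-0.14 to 0.30) for the glutaminyl enzyme Qars and 0.11 (-0.12 to 0.33) for the bifunctional glutamyl-prolyl enzyme Eprs. Those intervals, for the probe used, lie above the log2 change of each of the 4 enzymes that fell, although the differences between enzymes were not tested. The interval of Rars itself, -0.57 to -0.11, overlaps those of Qars and Eprs. The second detected Eprs probe, dimmer than the one used, had a log2 change of -0.32 (SE 0.29).

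Outside the complex, 4 of the 10 tested cytosolic synthetases fell. Gars, the glycyl enzyme, had lowest, median and highest signals of 5719, 6179.9 and 7280.4 in DMSO mice against 3581, 3931 and 5981 in IDFP mice. IDFP mouse 6, at the top of its group, was the sole IDFP mouse within the DMSO range, and the log2 change was -0.64 (SE 0.11, adjusted p = 0.000628). Aars, the alanyl enzyme, gave 2773, 3881 and 5166 in DMSO and 1986, 2744 and 2874 in IDFP mice. The lowest DMSO mouse lay inside the IDFP range, so that 4 of 8 IDFP mice were below every DMSO mouse, and the log2 change was -0.60 (SE 0.13, adjusted p = 0.00238). Farsb, the beta subunit of phenylalanyl-tRNA synthetase, ranged from 1663 through 1886 to 2347 in DMSO mice and from 1241 through 1398 to 1595 in IDFP mice, without overlap. Its log2 change was -0.45 (SE 0.096, adjusted p = 0.00314). Its partner Farsa, the alpha subunit, was not called (-0.20, 95% interval -0.43 to 0.016). For Sars, the seryl enzyme, the log2 change was -0.36 (SE 0.11, adjusted p = 0.0307), and this call did not survive leaving out any 1 of DMSO mice 4 or 5 or IDFP mice 1, 2, 3 or 5 (adjusted p 0.0838 at most).

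The remaining cytosolic members had negative log2 changes that did not pass the adjusted threshold. The tryptophanyl enzyme Wars had a log2 change of -0.27 (adjusted p = 0.066) although every IDFP mouse (189.9 to 245) lay below every DMSO mouse (247 to 298). The cysteinyl enzyme Cars, detected on 6 of the 19 arrays and so close to background, had a log2 change of -0.34 (adjusted p = 0.0656). Cars met the detection filter only through the DMSO group, where its mean was highest, so the filter itself favoured a negative value. Asparaginyl Nars (-0.30), threonyl Tars (-0.26) and valyl Vars (-0.067) had adjusted p-values of 0.138 to 0.773. On leaving out single mice, Cars passed without DMSO mouse 6 (adjusted p = 0.0396) and Wars without AM251/IDFP mouse 2 or 3 (0.0405 at the lowest), while Nars, Tars and Vars never did. Over the whole cytosolic set, 14 of 17 log2 changes, that of Cars included, were below 0, beside 4693 of all 9346 genes.

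**Figure D1:**
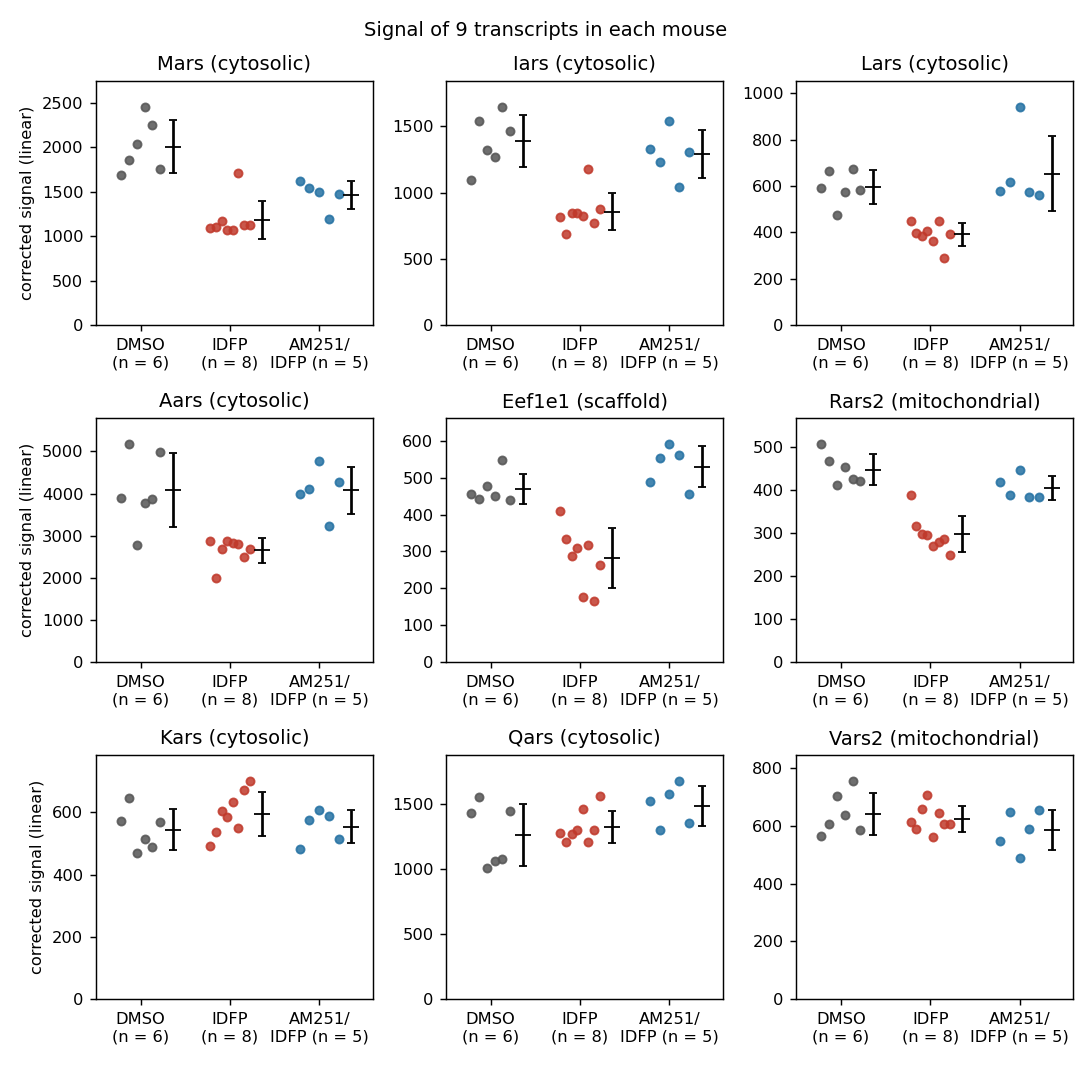
Corrected signal on a linear scale (y axis, from 0) of 9 transcripts in each mouse, by group (x axis); points are single mice and the black mark with bars is the group mean and SD. Mars, Iars, Lars, Aars, Eef1e1 and Rars2 were called lower in IDFP than in DMSO mice, while Kars, Qars and Vars2, shown for contrast after their values were seen, were not called.

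Several genes of the amino acid response were read beside the synthetases. In a list of ATF4 targets that holds no synthetase, 27 of 33 genes were tested, and 8 fell and 2 rose in IDFP against DMSO mice, beside 9.53% and 6.75% of all genes. The 4 with the smallest p all fell, with larger log2 decreases than any synthetase. Mean signals went from 6213 ± 2365 to 252 ± 156 for Fgf21, a fasting hormone made by the liver (log2 change -4.76, adjusted p = 1.28e-06), and from 2025 ± 514 to 342 ± 259 for Asns, asparagine synthetase (-2.81, adjusted p = 8.77e-05; SDs, n = 6 and 8). Chac1, a glutathione-degrading enzyme, had a log2 change of -2.01 (adjusted p = 4.52e-07), and Mthfd2, an enzyme of mitochondrial folate metabolism, of -1.93 (adjusted p = 7.94e-06). The transcript of Atf4 itself had a log2 change of -0.58 (adjusted p = 0.0137), whereas the 2 members of the list that rose were the transcription factors Cebpb (1.03) and Atf3 (1.93). The median over the 27 genes was -0.34. AM251/IDFP mice had 6 of the 27 higher than IDFP mice and none lower, beside 5.97% of all genes higher. Among them were Asns (2.00, adjusted p = 0.00439), Mthfd2 (1.41, adjusted p = 0.000606) and Fgf21 (adjusted p = 0.0429), while Chac1 was not called (0.50, adjusted p = 0.0803). Against DMSO mice, AM251/IDFP mice had 3 of the 27 higher and 2 lower, beside 3.66% and 6.22% of all genes. The 2 that were lower were Fgf21 (-3.26, adjusted p = 0.000779) and Chac1 (-1.51, adjusted p = 0.00015).

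Because the genes that fell include known ATF4 targets, promoter windows were searched for the amino acid response motif bound by C/EBP-ATF dimers. The letters used were TGATGNAA, read on both strands, where the opposite strand gives TTNCATCA, in RefSeq windows running from 250 bases before to 50 after each annotated start (GRCm38.p6). The motif was present in 3.97% of 32851 windows and in at least 1 window of 4.51% of 27025 genes. A window was given for 30 members. It held the motif in 5 of 13 cytosolic synthetases (Aars, Gars, Iars, Tars and Yars), in 0 of 14 mitochondrial synthetases and in 0 of 3 scaffold proteins. Among members called lower after IDFP, 3 of the 8 with a window held it (Aars, Gars and Iars), as did 1 of the 16 with a window that were tested and not called (Tars). No window was given for Lars and Rars, which fell, or for Cars, Nars, Vars, Wars and Pars2, which were not called. Of the listed ATF4 targets with a window, 34.5% held it (10 of 29). A match describes letters in a window and not a bound site, and a window without them says nothing about the factor. The windows below show the members that fell and hold the motif, then Tars, which holds it and was not called, then Rars2, which fell and does not hold it, and Asns, in whose promoter the response element is well known. Capitals mark matches on either strand, and sequences read 5′ to 3′ along the gene's strand.
Aars, chr8:111033592-111033891, plus strand: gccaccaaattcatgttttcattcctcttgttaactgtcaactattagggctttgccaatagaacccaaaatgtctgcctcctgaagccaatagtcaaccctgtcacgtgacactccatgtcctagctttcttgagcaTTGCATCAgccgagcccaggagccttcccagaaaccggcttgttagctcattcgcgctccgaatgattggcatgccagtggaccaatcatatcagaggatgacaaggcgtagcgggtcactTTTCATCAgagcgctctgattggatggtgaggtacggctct
Gars, chr6:55037751-55038050, plus strand: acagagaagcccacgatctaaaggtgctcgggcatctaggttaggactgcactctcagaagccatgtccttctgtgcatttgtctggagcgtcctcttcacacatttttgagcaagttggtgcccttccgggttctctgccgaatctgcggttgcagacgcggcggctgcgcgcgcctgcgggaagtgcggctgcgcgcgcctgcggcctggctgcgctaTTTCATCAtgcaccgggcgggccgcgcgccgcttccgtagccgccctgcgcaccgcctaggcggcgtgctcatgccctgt
Iars, chr13:49681880-49682179, plus strand: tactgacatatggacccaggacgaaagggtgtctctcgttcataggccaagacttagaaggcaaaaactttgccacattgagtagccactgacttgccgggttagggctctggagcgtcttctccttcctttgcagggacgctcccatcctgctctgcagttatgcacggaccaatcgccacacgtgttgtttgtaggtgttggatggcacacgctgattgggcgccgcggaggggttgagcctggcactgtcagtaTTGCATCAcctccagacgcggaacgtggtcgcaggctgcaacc
Tars, chr15:11399609-11399908, minus strand: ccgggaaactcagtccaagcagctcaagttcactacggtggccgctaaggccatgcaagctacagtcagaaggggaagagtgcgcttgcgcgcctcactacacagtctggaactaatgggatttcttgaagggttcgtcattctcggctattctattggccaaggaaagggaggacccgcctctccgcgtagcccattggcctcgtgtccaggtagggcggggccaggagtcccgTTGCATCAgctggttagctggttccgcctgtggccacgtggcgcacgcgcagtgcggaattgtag
Rars2, chr4:34614707-34615006, plus strand: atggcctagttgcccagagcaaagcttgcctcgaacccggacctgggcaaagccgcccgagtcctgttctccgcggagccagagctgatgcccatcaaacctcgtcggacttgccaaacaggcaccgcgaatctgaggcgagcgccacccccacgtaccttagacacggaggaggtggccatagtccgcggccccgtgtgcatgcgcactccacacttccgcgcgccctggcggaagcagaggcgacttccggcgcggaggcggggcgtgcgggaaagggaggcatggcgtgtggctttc
Asns, chr6:7693160-7693459, minus strand: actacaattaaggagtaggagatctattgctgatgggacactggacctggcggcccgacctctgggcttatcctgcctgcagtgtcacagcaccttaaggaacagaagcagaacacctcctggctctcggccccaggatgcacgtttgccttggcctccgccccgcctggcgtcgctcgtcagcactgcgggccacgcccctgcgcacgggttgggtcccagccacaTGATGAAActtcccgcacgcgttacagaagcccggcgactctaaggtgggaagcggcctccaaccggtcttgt
Aars held 2 matches, starting 112 bases before and 10 after the start site of its window. That start lies 6064 bases inside the outer start of the Aars gene in the RefSeq table, so the position refers to an inner start of the gene. The starts of the Gars, Iars, Tars and Rars2 windows are the outer starts, and over all members this holds for 16 of 32 windows. The matches began 30 bases before the start in Gars, 15 before it in Tars, and 8 after it in Iars. All of these lay on the strand opposite to the gene, while the match of Yars, 4 bases after a start that lies 169 bases inside the gene's outer start, lay on the same strand.

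**Figure D2:**
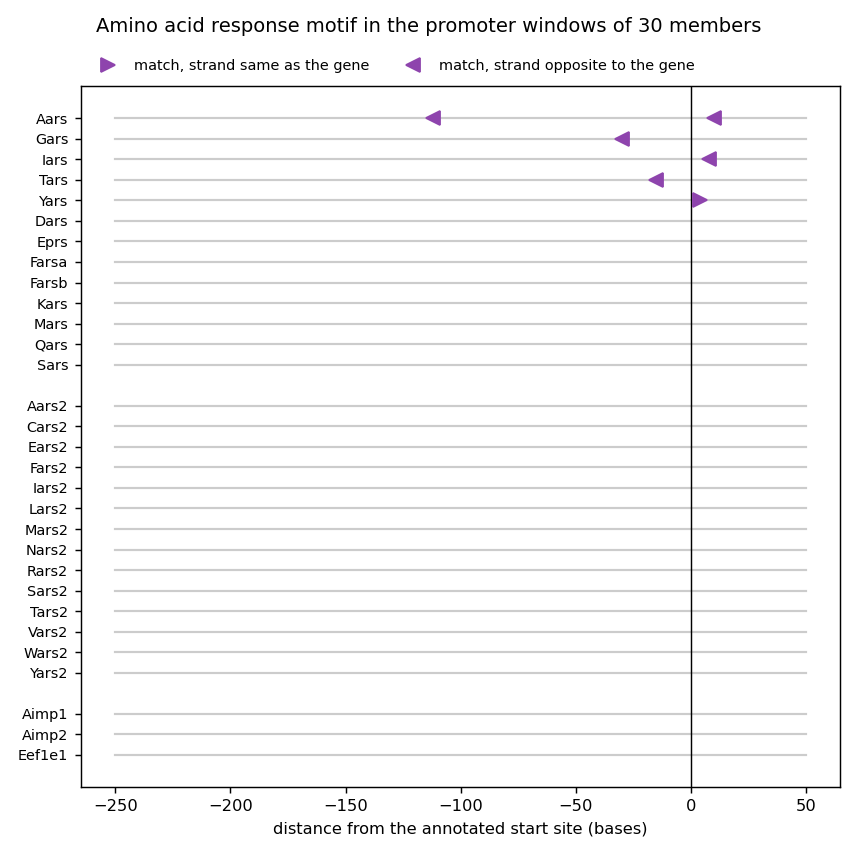
Positions of the amino acid response motif (triangles, pointing in the direction of the strand) relative to the annotated start site in bases (x axis) for the 30 members with a promoter window (y axis, cytosolic, mitochondrial and scaffold members from top to bottom; Aars2 and Aimp1 have 2 windows each). The 6 matches lie in 5 cytosolic members, between 112 bases before and 10 after the start.

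In the mitochondrial set, Rars2 was the sole tested member called lower. Rars2, the mitochondrial arginyl enzyme, had lowest, median and highest signals of 409.9, 438 and 505 in DMSO mice and 249.7, 289.6 and 388 in IDFP mice. The groups did not overlap, and the log2 change was -0.59 (SE 0.088, adjusted p = 0.000112). The 2 further detected probes for this gene gave log2 changes of -0.57 and -0.60. Fars2, the mitochondrial phenylalanyl enzyme, gave 2283, 2373 and 2905 in DMSO and 1789.9, 2196 and 2456 in IDFP mice. All 8 IDFP mice were below the DMSO mean, but only 5 were below every DMSO mouse, and the log2 change of -0.23 was not called (SE 0.095, adjusted p = 0.104). Wars2, the tryptophanyl enzyme, ranged from 80.1 through 162 to 184 in DMSO and from 54.6 through 114 to 148 in IDFP mice, with wide overlap. Its log2 change of -0.50 carried an SE of 0.23 (adjusted p = 0.146), and 1 IDFP mouse was below the detection threshold. Without DMSO mouse 1 it passed (adjusted p = 0.0425). Lars2, the leucyl enzyme, had a positive log2 change of 0.45 (SE 0.22, adjusted p = 0.171), with signals of 87.3, 189 and 260.3 in DMSO and 158, 261 and 344 in IDFP mice, again overlapping. The other 7, Ears2, Iars2, Mars2, Nars2, Pars2, Sars2 and Vars2, lay between -0.096 and 0.15, with adjusted p-values of 0.313 or more.

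Among the scaffold proteins only Eef1e1 fell, with a log2 decrease similar in size to that of Mars. Eef1e1, also known as Aimp3 or p18, holds Mars in the complex and gave 438, 452 and 547 in DMSO mice and 166, 298 and 409.8 in IDFP mice. The IDFP mice spread more widely than the DMSO mice but did not overlap with them, and the log2 change was -0.78 (SE 0.16, adjusted p = 0.00196), a level 0.582 times that of DMSO. Aimp1, which binds tRNA, gave 886, 969.7 and 1233 in DMSO and 785, 863 and 974 in IDFP mice, and Aimp2, the core scaffold, gave 215, 264 and 307 and 171, 225 and 243. Both had all 8 IDFP mice below the DMSO mean, with log2 changes of -0.20 (SE 0.078, adjusted p = 0.077) and -0.26 (SE 0.093, adjusted p = 0.0598), neither called. Aimp1 passed without DMSO mouse 6 (0.0426), and Aimp2 without DMSO mouse 3 or IDFP mouse 6 (0.0295 at the lowest).

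The medians by mouse set the compartments side by side. Relative to the DMSO mean, the median log2 difference over the 17 cytosolic members was -0.50 to -0.13 in IDFP mice and -0.17 to 0.16 in DMSO mice. Only IDFP mouse 6 was above the lowest DMSO mouse. Over the 11 mitochondrial members the IDFP mice lay between -0.19 and 0.057 and the DMSO mice between -0.090 and 0.083. In the AM251/IDFP mice the cytosolic median was -0.28 in mouse 4, -0.058 in mouse 2, -0.032 in mouse 1, -0.023 in mouse 5 and 0.17 in mouse 3. Mouse 4 therefore lay within the IDFP range and the other 4 within or just above the DMSO range. These medians describe the members and were not tested.

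**Figure D3:**
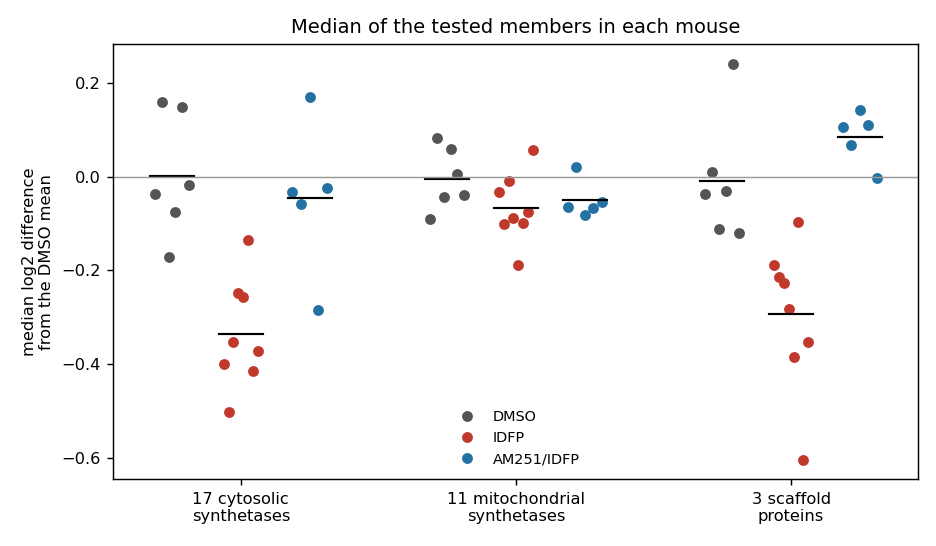
Median log2 difference from the DMSO mean over the tested members of each set (y axis) in single mice (points), for 17 cytosolic synthetases, 11 mitochondrial synthetases and 3 scaffold proteins; lines are group means. Cytosolic medians of IDFP mice ran from -0.50 to -0.13 and mitochondrial medians from -0.19 to 0.057.

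To determine how pretreatment with the CB1 antagonist altered these transcripts, AM251/IDFP mice were compared with IDFP mice. This comparison shares its IDFP mice with the comparison above. Transcripts of 11 of the 31 members were higher and none lower, beside 5.97% of all genes higher (558 of 9346) and 4.85% lower (453 of 9346). They were the cytosolic Lars, Aars, Iars, Rars, Nars, Wars, Gars and Farsb, the mitochondrial Rars2, and the scaffold proteins Eef1e1 and Aimp1. Every AM251/IDFP mouse lay above every IDFP mouse for Aars, Lars and Eef1e1, and for 2.54% of all genes (237 of 9346). The medians were 0.32 for the cytosolic, -0.081 for the mitochondrial and 0.28 for the scaffold members, against -0.012 for all genes.

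Lars read 577, 616, 939, 573 and 561 in AM251/IDFP mice 1 to 5, against at most 447 in IDFP mice. Mouse 3 stood well above the other 4, and the log2 change was 0.72 (SE 0.13, adjusted p = 0.00109), or 0.58 without that mouse. Aars read 3993, 4101, 4779.9, 3241 and 4272, all above the IDFP maximum of 2874, with a log2 change of 0.62 (SE 0.13, adjusted p = 0.00445). Iars read 1330.2, 1233, 1539, 1042 and 1302. Of these 5 values, 4 exceeded the highest IDFP mouse and the other fell short of IDFP mouse 6 alone, with a log2 change of 0.59 (SE 0.12, adjusted p = 0.0031). Eef1e1 read 487, 554, 590.2, 562 and 455, and the log2 change of 0.96 (SE 0.17, adjusted p = 0.00105), or 1.94 times the IDFP level, exceeded that of the other 30 tested members in this fit. Rars2 read 418, 388, 445, 382 and 384, all above the IDFP mean and 2 above every IDFP mouse, with a log2 change of 0.45 (SE 0.092, adjusted p = 0.00351). Mars read 1619.6, 1540.5, 1496, 1192 and 1470.1. All 5 AM251/IDFP mice exceeded the mean of the IDFP mice, but the log2 change of 0.32 was not called (SE 0.12, adjusted p = 0.0942). Without IDFP mouse 6 or without AM251/IDFP mouse 4 it was called, with an adjusted p as low as 0.0125.

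Of the remaining members, Gars read 5403, 5626, 6631, 4101 and 5337 and Farsb 2017, 1699, 2104, 1535 and 1908, each with a log2 change of 0.39 (adjusted p = 0.0386 and 0.0166). Aimp1 read 1080.3, 1053, 1108, 966 and 1072, a log2 change of 0.28 (adjusted p = 0.0347), and Aimp2 read 291, 236, 248, 281 and 259.6, a log2 change of 0.27 that was not called (adjusted p = 0.0801). The log2 changes of Rars, Nars and Wars were 0.49, 0.48 and 0.44, with adjusted p-values of 0.00873, 0.0354 and 0.0101. Of these calls, 4 were lost on leaving out single mice. The Farsb call was lost without AM251/IDFP mouse 1 or 3 (adjusted p up to 0.0614). That of Gars was lost without any 1 of IDFP mice 1, 2, 3, 4, 5, 7 or 8 or AM251/IDFP mice 1, 2, 3 or 5 (up to 0.137). That of Nars was lost without IDFP mouse 1, 2, 3, 4 or 7 or AM251/IDFP mouse 1, 3, 4 or 5 (up to 0.138), and that of Aimp1 without IDFP mouse 3, 4, 5, 7 or 8 or AM251/IDFP mouse 1, 2, 3 or 5 (up to 0.0925). The mitochondrial prolyl enzyme Pars2 read 72.8, 61.8, 96.8, 74.5 and 68.8 in AM251/IDFP mice against 73.3, 88.0 and 108 in IDFP mice (lowest, median, highest), a log2 change of -0.26 that was not called (SE 0.13, adjusted p = 0.225). Wars2 read 109, 166, 96.7, 157 and 179.9 (0.45, adjusted p = 0.274), Fars2 had a log2 change of -0.14 and Lars2 of -0.14, none of them called.

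**Figure D4:**
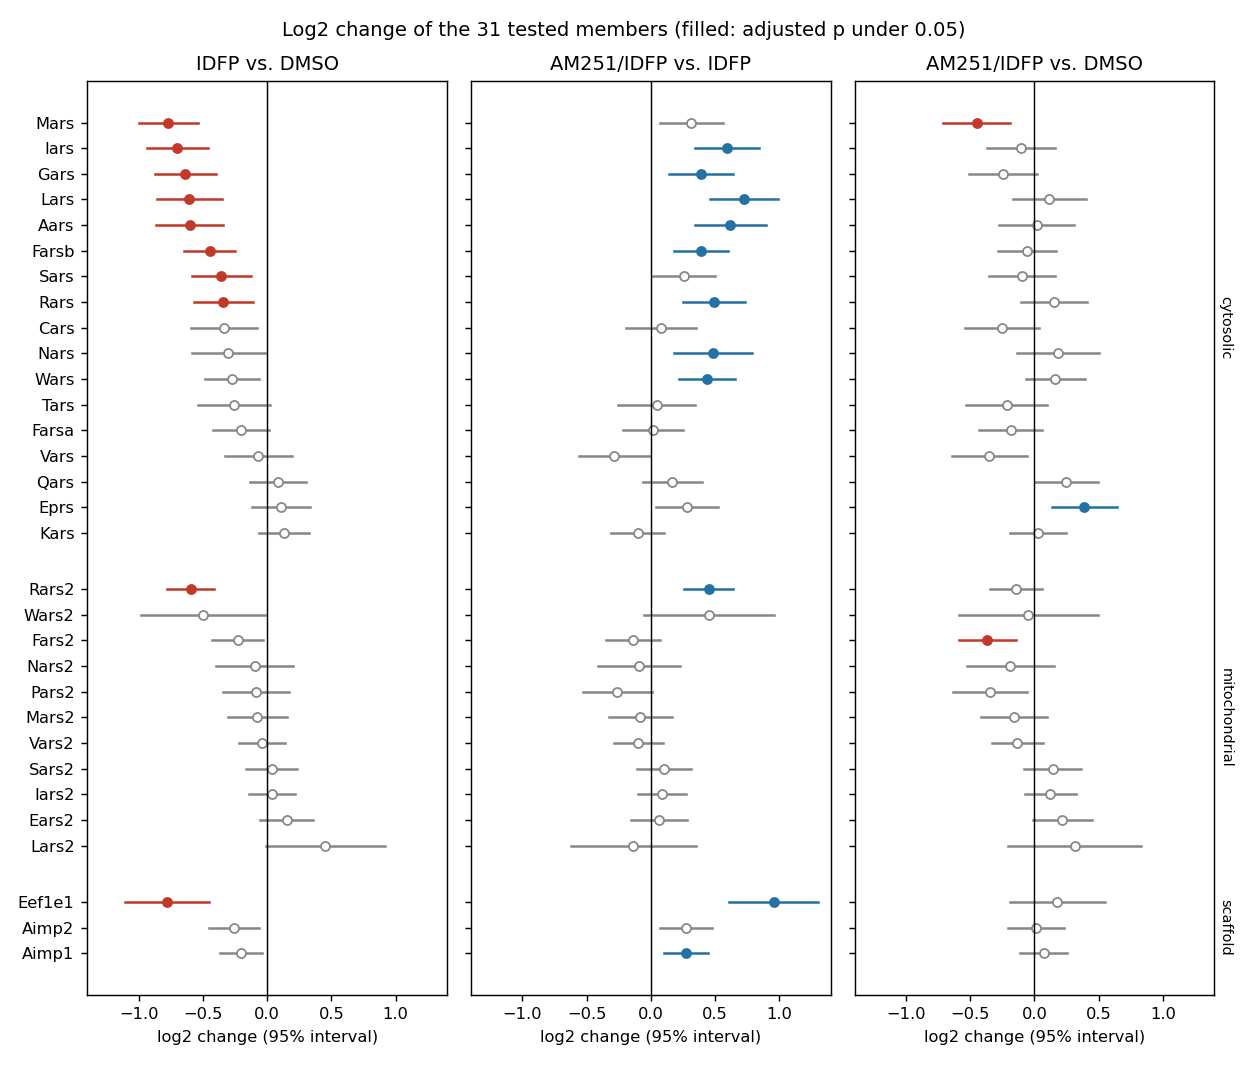
Log2 change with its 95% interval (x axis) of the 31 tested members (y axis, grouped as cytosolic, mitochondrial and scaffold) in the 3 comparisons; filled points passed an adjusted p under 0.05, red for lower and blue for higher. In the left panel 10 members are filled and all lie below 0, in the middle panel 11 are filled and all lie above 0, and in the right panel 3 are filled.

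AM251/IDFP mice were next compared with DMSO mice, which they share with the first comparison. Of the 31 members 2 were lower (Mars and Fars2) and 1 was higher (Eprs), beside 6.22% of all genes lower (581 of 9346) and 3.66% higher (342 of 9346). The Mars signals of the AM251/IDFP mice, 1192 to 1619.6, all lay below the lowest DMSO mouse (1692), with a log2 change of -0.45 (SE 0.13, adjusted p = 0.0274). Fars2 read 2089, 2156, 1773, 1683 and 2086, all below the lowest DMSO mouse (2283), with a log2 change of -0.37 (SE 0.11, adjusted p = 0.0342). The share of all genes without overlap between these groups was not counted. The Mars and Fars2 calls were both lost without any 1 of DMSO mice 3, 4 or 5 or AM251/IDFP mice 3 or 4, with adjusted p-values up to 0.0824 for Mars and 0.0957 for Fars2. Eprs read 588, 593, 572, 605 and 475 against 331, 451 and 541 in DMSO mice (lowest, median, highest), a log2 change of 0.39 (SE 0.12, adjusted p = 0.0481). That call was lost on leaving out any 1 of 14 of the 19 mice, all but DMSO 1, 2 and 6, IDFP 7 and AM251/IDFP 5 (adjusted p up to 0.128), and the second detected Eprs probe had a log2 change of -0.20. Pars2, at 69.2, 100.2 and 113 in DMSO mice, had a log2 change of -0.35 (adjusted p = 0.115). For the members that fell after IDFP other than Mars, the 95% intervals of this comparison all included 0, for example -0.16 to 0.40 for Lars, -0.27 to 0.31 for Aars, -0.37 to 0.16 for Iars, -0.35 to 0.059 for Rars2 and -0.19 to 0.54 for Eef1e1. The last of these reaches a log2 difference of 0.54, so that equality with DMSO was not shown. For Gars the interval was -0.51 to 0.021, and 1 of the 5 AM251/IDFP mice lay within the DMSO range.

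For several members different probes of the same gene gave different values. The second Mars probe, dimmer than the one used, had a log2 change of -0.26 in IDFP against DMSO mice and 0.033 in AM251/IDFP against DMSO mice. The 3 detected Iars probes gave -0.70, -0.42 and -0.18 after IDFP, in order of brightness, and the 2 Farsb probes -0.45 and -0.38. The second probe gave -0.090 for Sars and -0.32 for Eprs, against -0.36 and 0.11 for the probe used. For Vars the second probe read 0.30 where the brighter read -0.067. Larger decreases came from the second probe of Rars (-0.47), Wars (-0.37) and Aimp2 (-0.34), against -0.34, -0.27 and -0.26 for the probe used. The other detected Wars probes gave -0.14 and -0.24. In AM251/IDFP against IDFP mice the second Rars probe had a log2 change of 0.57, against 0.49 for the probe used. Whether these probes report different transcripts was not tested.

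The machinery on either side of tRNA charging was read from further lists. None of 7 tested cytosolic elongation factors was called in any comparison by limma, with unadjusted p under 0.05 for 0, 0 and 1 of them in the 3 comparisons. Of these, Eef1b2, a guanine exchange factor subunit, had a log2 change of 0.20 after IDFP, and Eef1g, another subunit, of -0.15. The median over the 7 after IDFP was 0.20. After IDFP 9.53% of all genes fell and 6.75% rose, and the counts in the short lists that follow stand beside those shares. Of 9 mitochondrial elongation and release factors 2 fell, the release factor Mtrf1 (-0.31, adjusted p = 0.0126) and the initiation factor Mtif3 (-0.44, adjusted p = 0.013). Of 8 mitochondrial charging accessories 2 fell, Qrsl1 (-0.57, adjusted p = 0.00286) and Gatc (-0.27, adjusted p = 0.0269). These encode subunits of the amidotransferase that makes mitochondrial glutaminyl-tRNA, which has no synthetase of its own. In AM251/IDFP against DMSO mice both were lower (-0.44 and -0.31) and so was the third subunit, Gatb (-0.48, adjusted p = 0.0323), beside 6.22% of all genes. Of 14 genes of tRNA export, processing and proofreading, Dus1l, a dihydrouridine synthase (-0.28), and Trmt61a, a tRNA methyltransferase subunit (-0.54), fell and Nsun2, a tRNA and mRNA cytosine methyltransferase (0.48), rose. Those calls are 14.3% lower and 7.14% higher, near the shares of all genes.

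Some markers of other cell types were called, and the shares of all genes called are given beside them. In IDFP against DMSO mice 9.53% of all genes were lower and 6.75% higher. The shares were 4.85% and 5.97% in AM251/IDFP against IDFP mice, and 6.22% and 3.66% in AM251/IDFP against DMSO mice. Outside the neutrophil set, no cell type had more than 1 marker called in any comparison. Of 5 neutrophil markers 4 were detected (Camp was not), with summed signals of 529 to 1368 in DMSO, 837 to 1543 in IDFP and 1279.9 to 6709.5 in AM251/IDFP mice, and 3 were higher in AM251/IDFP than in DMSO mice. Of 5 endothelial markers 4 were detected (Kdr was not), with sums of 6856 to 9289 in DMSO, 5987 to 8247 in IDFP and 5535 to 8147 in AM251/IDFP mice. Clec4g was lower in IDFP than in DMSO mice (log2 change -0.36) and in AM251/IDFP than in DMSO mice (-0.43), whereas Lyve1 was higher in AM251/IDFP than in IDFP mice (0.69). Of 5 lymphocyte markers 2 were detected, with sums of 119.8 to 146 in DMSO, 107 to 136 in IDFP and 110.5 to 135 in AM251/IDFP mice, and 1 was lower in IDFP than in DMSO mice. These 2 were dim, a single probe at the detection threshold reading 59.1 to 59.3. Of 5 cholangiocyte markers 1 was detected and of 5 erythroid markers 3 were, and none was called. Of 4 detected Kupffer cell markers, summing to 3156 to 4964 in IDFP and 2715 to 4106 in AM251/IDFP mice, Clec4f was lower in AM251/IDFP than in IDFP mice (-0.42), and of 5 detected stellate cell markers, summing to 9248 to 11696 and 9443 to 12993, Lrat was (-0.91). Among the hepatocyte markers Tat, an amino acid catabolic enzyme, was higher in AM251/IDFP than in DMSO mice. Their part in the synthetase results was not tested. The mice were spread over 3 bead chips, but the chip of each mouse is not given in the sources used here, so its part was not tested either.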

How the data were processed

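Liver RNA from 19 mice was amplified, biotin labelled and hybridized to MouseRef-8 v2.0 beadchips. The deposited values are linear probe intensities that the authors quantile normalized and background subtracted in BeadStudio 3.2. Of these values 30.1% were below 0, so brightness limits what dim probes can show. A second deposited table with 38 columns of values before normalization was not used, since its columns are not tied to single mice. Probe symbols came from the platform annotation, which named 23978 of 25697 probes and lists Mars as Mars1.

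Values were corrected by normexp with an offset of 16, log2 transformed and quantile normalized. A probe was detected above 1.645 times the background SD of its array, which was 10.6 to 10.7 units and was estimated from values below 0. Genes entered the test, through their brightest detected probe, when most arrays in 1 or more groups detected it. The 3 groups were fitted together with limma 3.58.1 in R 4.3.3, with Benjamini-Hochberg adjustment over 9346 genes and a threshold of 0.05. Scripts were tested on simulated data. The members and lists were chosen with earlier results of these data known. Values of single mice, or lowest, median and highest in the larger groups, are given by rule. They cover the 6 cytosolic and 4 mitochondrial members with the smallest p for IDFP vs. DMSO, the 2 of each compartment with the smallest p in each other comparison, and the scaffold proteins, and a member so chosen is followed through the comparisons. Each further list names up to 4 genes with the smallest p for IDFP vs. DMSO. Cebpb, Atf3, Atf4 and the members drawn for contrast were added after their values were seen. Promoter windows came from RefSeq. Alternatives changed the offset, normalization, background floor, filter, probe choice, variance estimate, array weights, samples in the fit and replicate block, and each mouse was left out in turn.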

Additional observations from a re-analysis of the deposited data

Results flagged for a closer look

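In 12 of 93 combinations of a member and a group, the highest or lowest mouse lay further from the rest of its group than Dixon's test allows at the 95% level, where chance gives about 1 in 20. In IDFP mouse 6 the signal was high for Gars (5981, the other IDFP mice 3581 to 4115), Iars (1177, the others 689 to 879) and Mars (1712, the others 1065 to 1174). Without this mouse the log2 changes from DMSO to IDFP were -0.72 for Gars, -0.77 for Iars and -0.85 for Mars, and all 3 were still called. In AM251/IDFP mouse 3 the signal was high for Lars (939, the others 561 to 616) and Rars (1135, the others 638 to 760) and low for Nars2 (77.9, the others 107 to 116). Without this mouse, AM251/IDFP and IDFP mice differed on the log2 scale by 0.58 for Lars and 0.36 for Rars, both still called. DMSO mouse 5 was high for Farsa (226, the others 142 to 164) and for Eef1e1 (547, the others 438 to 477). Single values elsewhere were those of Aars in IDFP mouse 2 (1986, the others 2490.0 to 2874), Vars in DMSO mouse 3 (535, the others 368 to 391.6), and Eprs in IDFP mouse 7 (396, the others 455 to 498) and in AM251/IDFP mouse 5 (475, the others 572 to 605).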

How the results depend on the processing

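The count of members lower in IDFP than in DMSO mice (10) stayed within 8 to 12 under every alternative run and with any single mouse left out (8 to 12). The cytosolic median stayed below the mitochondrial median, by log2 differences of -0.23 to -0.27 under the other settings and of -0.35 to -0.23 with single mice left out. The count of members higher in AM251/IDFP than in IDFP mice (11) was 6 with the replicate number as a block, 8 to 12 under the other settings and 7 to 12 with single mice left out, reaching 7 without AM251/IDFP mouse 1 or 3. The count changed between AM251/IDFP and DMSO mice (3) was 1 with no filter on dim probes, 1 with the mean over detected probes, 1 with the replicate number as a block and 1 with only the 2 groups fitted. It was 0 to 3 with single mice left out, and 0 without DMSO mouse 3, 4 or 5 or AM251/IDFP mouse 3 or 4. Fewer arrays in the fit and more genes tested are part of those settings, and the cause of the other shifts was not tested. For single members, 94 values lost their call and 602 kept it, and none reversed. Mice with the same replicate number showed no common direction of deviation (r of -0.19 to 0.26 over 16 pairs, 5 of them above 0.1). The median r was 0.015 over these pairs and -0.0037 over 102 other pairs. The numbers were therefore not taken as pairs. However, 6 of 19 mice correlated best with their own number, and whether this exceeds chance was not tested. Among the 19, IDFP mice 7 and 8 had no mouse of their number in another group and so could not match. Blocking lowered the members called lower after IDFP from 10 to 8, without Rars and Sars. It left Farsb, Gars, Nars, Rars and Aimp1 uncalled between AM251/IDFP and IDFP mice, and Mars and Fars2 uncalled between AM251/IDFP and DMSO mice. With no filter on dim probes the calls of Rars and Sars after IDFP, of Gars, Nars and Aimp1 against IDFP, and of Eprs and Fars2 against DMSO were lost. Probes near the detection limit, such as that of Cars, bound the precision of dim members.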
